A study of Mus musculus with 7 samples.

Results

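The 10 genes described here encode enzymes and core subunits that write and erase methylation of lysine 4 of histone H3 (H3K4). They are *Kmt2a*, *Kmt2b*, *Kmt2c*, *Kmt2d*, *Setd1a* and *Setd1b*, the catalytic methyltransferases, *Ash2l* and *Wdr5*, subunits that all these enzymes share, and *Kdm5a* and *Kdm5b*, demethylases. They were chosen by gene symbol, and all 10 were found among the 31531 genes of the deposited table. RNA was sequenced from skeletal muscle fibers of E17.5 mouse fetuses, 4 WT and 3 of the genotype *dy*W/*dy*W, termed *dy*W. The *dy*W mouse, kept on C57BL/6, carries a disrupted *Lama2* gene and models LAMA2-congenital muscular dystrophy in every tissue, not in muscle alone. Fibers were freed from epaxial muscles with dispase and collagenase and collected on a strainer, without sorting, so RNA of other cells can be present. The study set the genes that were lowered in these fibers beside H3K4me3 maps of differentiating C2C12 cells, a mouse myoblast line, and the genes that make and remove this mark are followed here in the fibers themselves.

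H3K4 trimethylation (H3K4me3) marks the promoters of transcribed genes, and monomethylation marks enhancers. The methyltransferases work inside COMPASS complexes, in which Wdr5, Rbbp5, Ash2l and Dpy30 form the core that the catalytic subunit needs for full activity. Setd1a and Setd1b place most of the H3K4me3 of a cell, Kmt2a and Kmt2b act at selected promoters, and Kmt2c and Kmt2d act mainly at enhancers. Kdm5a and Kdm5b remove the tri- and dimethyl marks. In muscle, Pax7 recruits a Wdr5 and Ash2l complex to *Myf5* in satellite cells, and Ash2l complexes are brought to muscle genes as myoblasts differentiate.

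Values are normalized counts, that is, reads on a gene divided by 1 scaling factor per library. The reads on genes numbered 470804 to 2220813 in the WT libraries and 3663905 to 18297106 in the *dy*W libraries, so 1 read was worth 2.05 to 5.33 normalized counts in WT and 0.0974 to 0.488 in *dy*W. The targeted gene *Lama2* was at 90.6 to 111 normalized counts in WT, 4.29 in *dy*W1 and 6.07 in *dy*W2, but 139.7 in the library labelled *dy*W3. That library therefore went against its label on this gene, at a value above every WT library. Reads outside the disrupted part of *Lama2* would be counted in every *dy*W library, and the cause was not tested. Library *dy*W1 had little fiber RNA: its 10 myofiber markers summed to 58.6 normalized counts, with *Ckm*, *Myh3*, *Myh8* and *Des* at 0, against 10529 and 6387 in the other *dy*W libraries and 2644 to 79781 in WT. Library WT1 held cartilage RNA, with 4 markers summing to 419563 against 17.2 to 7173 in the other libraries. The 6 erythroid markers summed to 16.0 in WT1 and 14.8 in *dy*W1, against 28845 to 291219 in the other libraries. In each of those others the erythroid sum was above the myofiber sum. The 7 fibroblast markers summed to 4174 to 14747 in WT and 21951 to 32625 in *dy*W, without overlap, and the part of this difference in the values below was not tested. In such bulk samples, fewer cells of a type and less RNA per cell cannot be told apart.

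None of the 10 genes passed the test for a difference between *dy*W and WT fibers. A gene was called where limma gave an adjusted p under 0.01 and an absolute log2 fold change over 1.5, on log2(normalized count + 1), which understates the change of low genes. With these thresholds 18.8% of the 25791 tested genes were called, almost all of them lower in *dy*W (18.7% lower and 0.0659% higher). In the range of mean normalized counts that the 10 genes span, 16.1 to 253, the share called was 10.2% of 13905 genes. At an unadjusted p under 0.05 the count was also 0 of the 10, against 44.3% of all tested genes and 30.9% within that range. At an adjusted p under 0.05 and the same fold threshold it was again 0 of the 10, against 30.6% of all tested genes. With voom on the recovered reads, 0 of the 10 were called and 0 were at an unadjusted p under 0.05, against 23.6% and 37.3% of all genes. The groups overlapped for every one of the 10 genes, while 34.8% of all tested genes (31.5% lower and 3.28% higher in *dy*W), and 25.9% of those in the range, had no overlap. The count at an unadjusted p under 0.05 depended on the scaling. After subtraction of the median read density on odorant and vomeronasal receptor genes it was 4 of the 10, against 17.8% of all genes. These were *Kmt2a*, *Kmt2c*, *Setd1a* and *Kdm5a*, all higher. That density was 0 in *dy*W1 and *dy*W2, so the subtraction lowered only the WT libraries and *dy*W3. It left *Setd1a* at 0 in all 4 WT libraries, *Kmt2a* at 0 in WT2, WT3 and WT4, and *Kmt2c* at 0 in WT2. The p-values of these genes therefore rest partly on values set to 0. After quantile normalization the count was 3 of the 10 (*Setd1a* higher, *Kmt2d* and *Ash2l* lower) against 15.5%. With all libraries set to the same total it was 2 of the 10 (*Kmt2c* and *Kdm5a*, both higher) against 39.8%. Without *dy*W2 it was 2 of the 10 (*Kmt2c* higher, *Ash2l* lower) against 36.9%. It was 1 of the 10, *Setd1b*, lower, without *dy*W1 (against 41.4%) and without WT3 (against 40.0%). The shares of all genes called also depended on single libraries: no gene at all was called without WT2, without WT4 or without *dy*W2, and 2090 lower and 3 higher were called without *dy*W1.

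The log2 fold changes of the 10 genes (*dy*W against WT) ran from -1.60 to 0.99, 5 below 0 and 5 above, with a median of -0.11. The median was -1.99 over all tested genes and -1.14 over those in the same range of counts. The estimates were wide, with 95% intervals of a log2 fold change that reached 1.76 to each side at the median, so changes of severalfold in either direction would not have been detectable for most of these genes. In WT libraries a gene rested on 1 to 69 reads and in *dy*W libraries on 20 to 4964. The spread between libraries, as highest over lowest, was wider in *dy*W for 9 of the 10 genes. *dy*W1 was the highest *dy*W library for 8 genes, and the lowest was *dy*W2 for 6 and *dy*W3 for 4. In WT, WT1 was the highest library for 7 genes and WT3 the lowest for 7. With both WT1 and *dy*W1 left out, 0 of the 10 and 0 of 26210 genes were called, and 1 of the 10, *Setd1b*, was at an unadjusted p under 0.05, among 10924 of all genes. Without the library labelled *dy*W3, 0 of the 10 were called, against 6698 lower and 21 higher of 25971 genes. At an unadjusted p under 0.05 it was 0 of the 10, against 50.5% of all genes. Their log2 fold changes then ran from -1.41 for *Kmt2d* to 0.89 for *Setd1a*, where the median of all genes was -2.54. The smallest adjusted p of the 10 was 0.268.

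**Figure D1:**
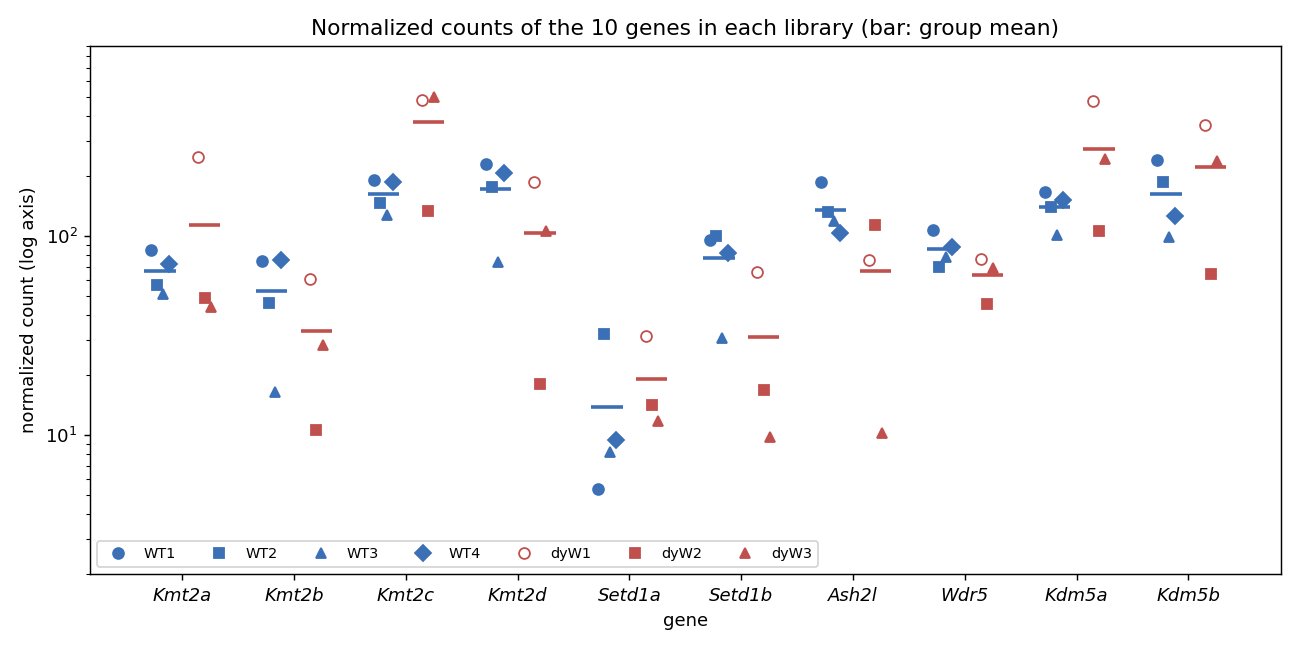
Normalized counts on a log axis for each of the 10 genes in the 4 WT (blue) and 3 *dy*W (red) libraries, 1 symbol per library, with a bar at the group mean and an open circle for *dy*W1. The 2 groups overlap for all 10 genes, and the *dy*W libraries are spread more widely than the WT libraries for 9 of them.

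*Setd1a* and *Setd1b* encode the catalytic subunits of the Set1 complexes. *Setd1a* (GRCm39 chromosome 7, 127375842 to 127399294, plus strand) was at 5.33, 32.4, 8.21 and 9.44 normalized counts in WT1 to WT4 and at 31.3, 14.2 and 11.7 in *dy*W1 to *dy*W3. WT2 stood above the other WT libraries, and its value was close to that of *dy*W1. The WT values rested on 1, 12, 4 and 3 reads, and the single read in WT1 allows 0.135 to 29.7 normalized counts (exact 95% Poisson interval, counting error only). The WT mean was 13.8 ± 12.5 (SD, n = 4) and the *dy*W mean 19.1 ± 10.7 (SD, n = 3), a log2 fold change of 0.62 (SE 0.81), with an adjusted p of 0.585 by limma. Without WT2 it was 1.12 with an adjusted p of 0.414, and without *dy*W1 it was 0.22 with an adjusted p of 0.867.

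*Setd1b* (chromosome 5, 123280256 to 123306692, plus strand) was at 96.0, 99.8, 30.8 and 81.8 in WT1 to WT4 and at 66.2, 16.8 and 9.77 in *dy*W1 to *dy*W3. Only WT3 lay within the range of the *dy*W libraries, since *dy*W1 was above WT3 and below the other WT libraries. The means were 77.1 ± 31.8 (SD, n = 4) and 30.9 ± 30.7 (SD, n = 3), and the log2 fold change of -1.60 (SE 0.82) was the lowest of the 10. The adjusted p was 0.165 by limma and the exact two-sided permutation test over the 35 ways to assign the libraries gave p = 0.114, where the smallest p this test allows is 0.0286. Without *dy*W1, the library with least fiber RNA, the log2 fold change was -2.36 with an adjusted p of 0.0446, still short of 0.01. With WT1 left out as well it was -2.21 with an adjusted p of 0.0875, and without *dy*W3 it was -1.04 with an adjusted p of 0.318.

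*Kmt2a* and *Kmt2b* encode MLL1 and MLL2, which bind unmethylated CG dinucleotides through a CXXC domain. *Kmt2a* (chromosome 9, 44714652 to 44792621, minus strand) was at 85.3, 56.6, 51.3 and 72.4 in WT and at 248, 48.7 and 44.0 in *dy*W. A single library, *dy*W1, set the higher mean of the *dy*W group, and the other *dy*W libraries lay below all WT libraries. The means were 66.4 ± 15.5 (SD, n = 4) and 114 ± 117 (SD, n = 3), with a log2 fold change of 0.32 (SE 0.74) and an adjusted p of 0.767 by limma. Without *dy*W1 the sign turned, to -0.48 with an adjusted p of 0.571.

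*Kmt2b* (chromosome 7, 30268283 to 30288414, minus strand) was at 74.6, 45.8, 16.4 and 75.5 in WT and at 60.7, 10.6 and 28.3 in *dy*W. WT3 was low beside the other WT libraries, and *dy*W1 again lay above the other *dy*W libraries. The log2 fold change was -0.76 (SE 0.84), with an adjusted p of 0.519 by limma and p = 0.314 by the exact permutation test. It was -0.13 (adjusted p 0.924) without *dy*W2 and -1.34 (adjusted p 0.265) without *dy*W1.

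*Kmt2c* and *Kmt2d* encode MLL3 and MLL4, the large methyltransferases that act mainly at enhancers, and Kmt2d is known to be needed for the enhancers of muscle genes in differentiating cells. *Kmt2c* (chromosome 5, 25476796 to 25703810, minus strand) was at 192, 146, 127 and 186 in WT and at 484, 134 and 500.1 in *dy*W. Libraries *dy*W1 and *dy*W3 were above every WT library and *dy*W2 was within the WT range. The means were 163 ± 31.3 (SD, n = 4) and 373 ± 207 (SD, n = 3). The log2 fold change of 0.99 (SE 0.61) was the highest of the 10 genes, with an adjusted p of 0.242 by limma and p = 0.114 by the exact permutation test. Without *dy*W2 it was 1.61 with an adjusted p of 0.0565, and without *dy*W3 it was 0.66 with an adjusted p of 0.457.

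*Kmt2d* (chromosome 15, 98729550 to 98769085, minus strand) was at 229, 175, 73.8 and 208 in WT and at 187, 18.1 and 105 in *dy*W. Library *dy*W2 was far below all others, and WT3 was below *dy*W1 and *dy*W3. The log2 fold change was -1.13 (SE 0.86), with an adjusted p of 0.342 by limma and p = 0.286 by the exact permutation test. Without *dy*W1 it was -1.82 with an adjusted p of 0.149. The lower mean rested on *dy*W2, without which the log2 fold change was -0.17 with an adjusted p of 0.881.

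The promoters of *Kmt2c* and *Kmt2d* are printed because these paralogs stand on opposite sides of the ratios described below, and because promoters rich in CG are typical sites of H3K4me3. Each window holds 250 bases before and 50 after the start of the gene in the RefSeq promoter table (built on GRCm38.p6), is written 5′ to 3′ along the gene, and has CG dinucleotides in capitals, with GRCm39 positions from an exact match of the sequence to that genome.
Kmt2c, chr5:25703732-25704031, minus strand: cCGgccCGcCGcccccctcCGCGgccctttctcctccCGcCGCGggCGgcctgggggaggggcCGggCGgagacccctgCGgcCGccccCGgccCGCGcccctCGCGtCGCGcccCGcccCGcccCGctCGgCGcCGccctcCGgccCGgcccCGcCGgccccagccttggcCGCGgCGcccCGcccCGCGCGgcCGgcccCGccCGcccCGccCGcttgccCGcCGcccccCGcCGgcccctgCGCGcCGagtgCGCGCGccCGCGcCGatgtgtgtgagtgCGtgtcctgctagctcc
Kmt2d, chr15:98769037-98769336, minus strand: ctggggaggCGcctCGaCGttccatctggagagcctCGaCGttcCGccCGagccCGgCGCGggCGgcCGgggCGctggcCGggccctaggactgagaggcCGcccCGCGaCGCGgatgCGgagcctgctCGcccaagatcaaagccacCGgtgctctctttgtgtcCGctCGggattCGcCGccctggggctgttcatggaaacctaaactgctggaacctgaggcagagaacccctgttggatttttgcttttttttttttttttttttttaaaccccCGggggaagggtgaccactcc
The *Kmt2c* window held 56 CG and the *Kmt2d* window 27, against a median of 7 over the promoters of the table. At least as many CG as in *Kmt2c* were found in 0.195% of all promoters and at least as many as in *Kmt2d* in 15.5%, while 94.6% held at least 1 CG. The table matched 6 of the 10 genes, and their windows held from 17 CG in *Kdm5b* to 56 in *Kmt2c*, all above that median. *Kmt2b*, *Setd1b*, *Ash2l* and *Kdm5a* were not matched by symbol. No DNA methylation or chromatin was measured in these libraries.

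*Ash2l* and *Wdr5* encode the shared core. *Ash2l* (chromosome 8, 26302560 to 26337743, minus strand) was at 187, 132, 119 and 104 in WT and at 75.6, 114 and 10.3 in *dy*W. Libraries *dy*W1 and *dy*W3 were below every WT library, and *dy*W2 lay within the WT range. The means were 135 ± 36.04 (SD, n = 4) and 66.6 ± 52.4 (SD, n = 3), with a log2 fold change of -1.52 (SE 0.84) and an adjusted p of 0.196 by limma. The exact permutation test gave p = 0.0857, the smallest exact p among the 10 genes. This difference rested on *dy*W3, the library with *Lama2* at the WT level, since without it the log2 fold change was -0.51 with an adjusted p of 0.515. Without *dy*W2 it was -2.18 with an adjusted p of 0.0929.

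*Wdr5* (chromosome 2, 27405161 to 27426560, plus strand) had the narrowest range of the 10 genes in *dy*W, and one of the narrowest in WT. It was at 107, 70.1, 77.9 and 88.1 in WT and at 76.2, 45.7 and 69.3 in *dy*W. Only *dy*W1 reached into the WT range, above WT2. The log2 fold change was -0.44 (SE 0.55), with a 95% interval from -1.67 to 0.80, an adjusted p of 0.568 by limma and an exact permutation p of 0.114.

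*Kdm5a* and *Kdm5b* encode the demethylases of H3K4me3. *Kdm5a* (chromosome 6, 120341068 to 120421535, plus strand) was at 165, 140.2, 100.5 and 151 in WT and at 476, 106 and 243 in *dy*W. Libraries *dy*W1 and *dy*W3 were above every WT library, as for *Kmt2c*, and *dy*W2 was near the lowest WT value. The means were 139 ± 27.8 (SD, n = 4) and 275 ± 187 (SD, n = 3), with a log2 fold change of 0.75 (SE 0.62) and an adjusted p of 0.385 by limma. Without *dy*W1 the log2 fold change was 0.23 with an adjusted p of 0.805, and without *dy*W2 it was 1.31 with an adjusted p of 0.141.

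*Kdm5b* (chromosome 1, 134487875 to 134563030, plus strand) was at 239.9, 186, 98.5 and 126 in WT and at 361, 64.8 and 238 in *dy*W. Library *dy*W1 lay above the whole WT range, *dy*W2 below it and *dy*W3 within it. The log2 fold change was 0.21 (SE 0.70), with an adjusted p of 0.841 by limma, the largest of the 10 genes. It was -0.30 without *dy*W1 and 0.93 without *dy*W2.

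**Figure D2:**
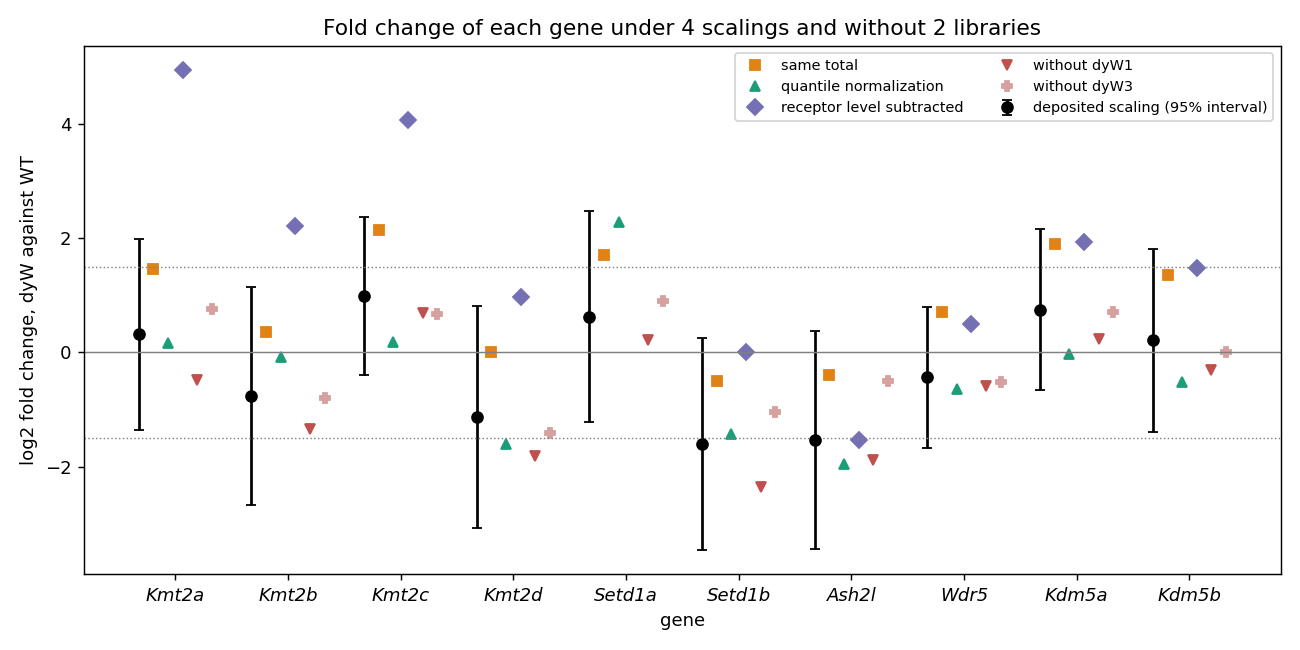
Log2 fold change of each gene (*dy*W against WT) with the deposited scaling and its 95% interval (black), under 3 other scalings (orange, green, purple) and without *dy*W1 or *dy*W3 (red shades), with dotted lines at -1.5 and 1.5. All 10 intervals span 0, and the sign turns under at least 1 other scaling for *Kmt2b*, *Kmt2d*, *Wdr5*, *Kdm5a* and *Kdm5b*; *Setd1a* has no purple point because its WT level was 0 after the subtraction.

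The scaling shifted the bulk of the genes, and the sign of the difference turned with it for 5 of the 10 genes. Taken over the whole set of tested genes, the median log2 fold change was -1.99 as deposited, -1.24 once all libraries had the same total, 0.06 after quantile normalization, and 0.26 after the read level of odorant and vomeronasal receptor genes was subtracted per kb. The median of the 10 genes lay 1.87 above that of all genes with the deposited scaling, 2.27 above it with the same total, 1.44 above it after the subtraction, and 0.36 below it after quantile normalization. Across these scalings *Kmt2a*, *Kmt2c* and *Setd1a* were above 0 and *Setd1b* and *Ash2l* below 0 in each, although *Setd1b* was at -0.0014 after the subtraction and *Setd1a* then had no WT level left, and none of the 10 genes was called in any. The smallest adjusted p of the 10 with the same total was 0.0667, for *Kmt2c*, at a log2 fold change of 2.13.

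The summed level of the 10 genes was 1381, 1084, 704 and 1101 normalized counts in WT1 to WT4 and 2066, 572 and 1260 in *dy*W1 to *dy*W3. Both the highest and the lowest sum were in *dy*W, and the means were 1067 ± 278 (SD, n = 4) and 1299 ± 748 (SD, n = 3). The 6 methyltransferases summed to 308 to 682 in WT and 242 to 1077 in *dy*W, and the demethylases *Kdm5a* and *Kdm5b* to 199 to 405 and 171 to 837. The sum of *Ash2l* and *Wdr5* was the exception, at 293, 202, 197 and 192 in WT and 152, 159 and 79.6 in *dy*W, without overlap. That sum was singled out after its values were seen, with the deposited scaling, and 31.5% of single genes had every *dy*W library below every WT library.

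Ratios between these genes within a library do not depend on the scaling factor. The ratio of *Kmt2c* to *Kmt2d* was 0.837, 0.831, 1.72 and 0.894 in WT1 to WT4 and 2.59, 7.40 and 4.74 in *dy*W1 to *dy*W3. Every *dy*W library was above every WT library, with means of 4.91 ± 2.41 (SD, n = 3) and 1.07 ± 0.435 (SD, n = 4). *Setd1a* to *Setd1b* was 0.0556, 0.324, 0.267 and 0.115 in WT and 0.473, 0.842 and 1.20 in *dy*W, also without overlap, but with as little as 1 read of *Setd1a* in WT. *Kmt2a* to *Kmt2b* (0.958 to 3.13 in WT and 1.55 to 4.58 in *dy*W) and *Kdm5a* to *Kdm5b* (0.689 to 1.20 and 1.02 to 1.64) overlapped.

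**Figure D3:**
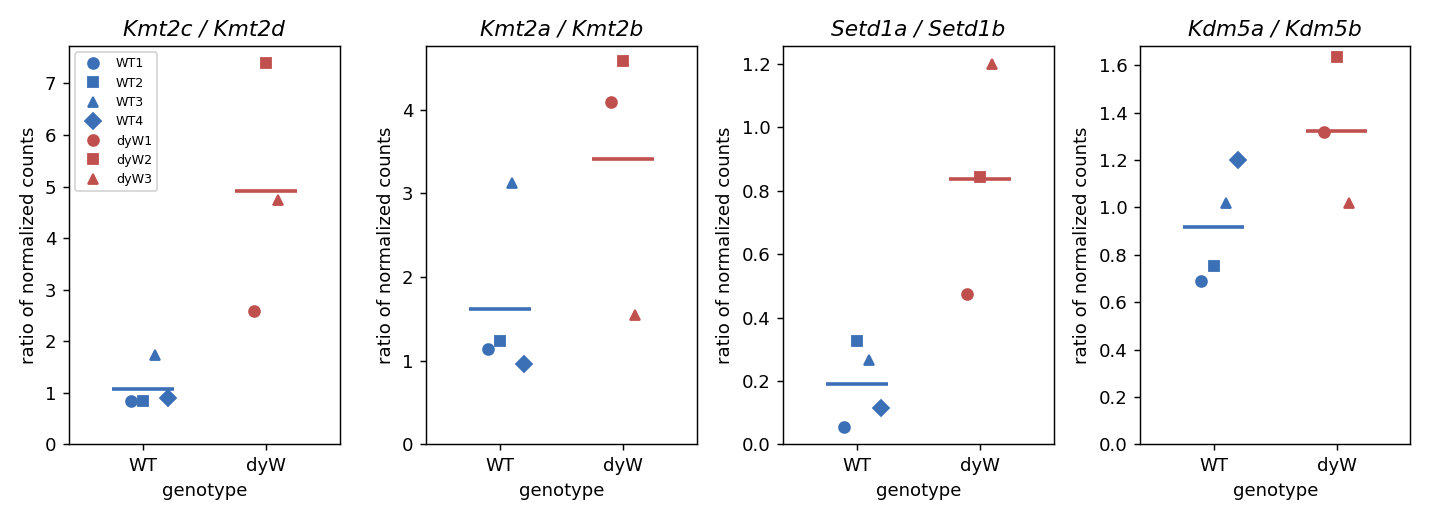
Ratio of normalized counts within each library for 4 paralog pairs, with WT in blue, *dy*W in red and a bar at the group mean, on axes that start at 0. The groups do not overlap for *Kmt2c* to *Kmt2d* or *Setd1a* to *Setd1b*, and they overlap for *Kmt2a* to *Kmt2b* and *Kdm5a* to *Kdm5b*.

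The demethylases summed, as a ratio to the 6 methyltransferases, were at 0.594, 0.587, 0.647 and 0.438 in WT and at 0.777, 0.704 and 0.688 in *dy*W. The lowest *dy*W value thus lay above the highest WT value, by a small margin over WT3. These ratios are descriptions chosen after their values were seen and carry no test. Of the 45 ratios between the 10 genes, 12 (26.7%) did not overlap between the groups, near the 25.4% found for the ratios of the 10 genes to every tested gene in their range of counts. Of those 12, *Setd1b* was on the lower side in 5, *Kmt2d* in 3, and *Kmt2b* and *Wdr5* in 2 each. *Kmt2c* and *Kdm5a* were on the higher side in 4 each, *Kdm5b* in 2, and *Kmt2a* and *Setd1a* in 1 each. As a share of the summed counts of the 10 genes, 4 of the 10 did not overlap between the groups, and 27% of all genes in their range of counts did not overlap when set against the same sum. Of these 4, *Kmt2c* took 13.4% to 18.1% in WT and 23.4% to 39.7% in *dy*W. *Kdm5a* took 12.0% to 14.3% and 18.5% to 23.0%, *Kmt2d* 10.5% to 18.9% and 3.16% to 9.05%, and *Setd1b* 4.37% to 9.20% and 0.775% to 3.20%. The other 6 overlapped, among them *Ash2l* at 9.43% to 16.9% and 0.814% to 19.9% and *Kdm5b* at 11.4% to 17.4% and 11.3% to 18.9%.

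Levels of different genes were compared per kb of annotated exon. In WT the mean normalized count per kb ran from 11.2 for *Wdr5*, 10.3 for *Ash2l*, 9.79 for *Kdm5b*, 9.12 for *Kdm5a* and 8.61 for *Kmt2d* through 6.39 for *Setd1b*, 6.31 for *Kmt2c* and 5.39 for *Kmt2b* to 3.98 for *Kmt2a* and 2.02 for *Setd1a*. Only the last step, from *Kmt2a* to *Setd1a*, was larger than the larger SD of the neighbours. In *dy*W the order of mean levels per kb began with *Kdm5a* at 18.0, *Kmt2c* at 14.5 and *Kdm5b* at 13.3 and ended with *Setd1a* at 2.79 and *Setd1b* at 2.56, and no step between neighbours exceeded the larger SD.

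Several WT values lay close to the density of reads on genes that muscle is not known to use. The 1388 odorant and vomeronasal receptor genes had a median of 0.631, 2.51, 1.77 and 1.87 reads per kb in WT1 to WT4, 0 in *dy*W1 and *dy*W2, and 1.84 in *dy*W3. In WT, 29 of the 40 values (10 genes in 4 libraries) were above the receptor median of their library, by up to 4.30-fold. *Setd1a* was below it in all 4 WT libraries and *Kmt2a* in WT2, WT3 and WT4. *Kmt2d*, *Ash2l*, *Wdr5*, *Kdm5a* and *Kdm5b* were above it in every WT library. In *dy*W3, *Kmt2c* was at 21.6, *Kdm5a* at 17.7 and *Kdm5b* at 16.0 times the receptor median, while *Setd1b* and *Ash2l* were at 0.901 and 0.867 times. With the receptor level subtracted, *Kmt2c* to *Kmt2d* overlapped between the groups through WT3, where 1.38 normalized counts of *Kmt2d* were left and the ratio was 24.2. Through that value the direction of the means turned, to 6.31 in WT and 5.14 in *dy*W. The ratios in WT1 and WT4, 0.649 and 0.377, stayed below those of *dy*W (2.59, 7.40 and 5.45). The ratio of 0 in WT2 is not informative, since no *Kmt2c* was left there. *Setd1a* was at 0 in all 4 WT libraries after the subtraction. The ratio of demethylases to methyltransferases then also overlapped (0.585 to 2.39 in WT and 0.704 to 0.777 in *dy*W), and its direction turned, with means of 1.41 in WT and 0.738 in *dy*W. The part of these reads in the differences was not tested beyond that subtraction.

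**Figure D4:**
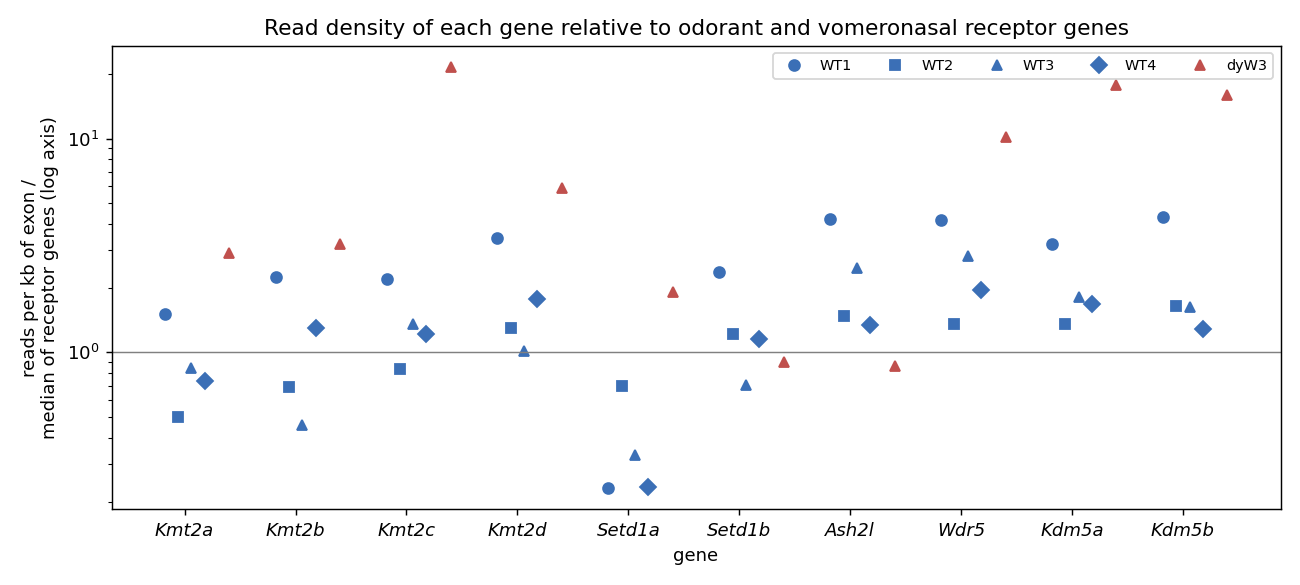
Reads per kb of exon of each gene divided by the median of odorant and vomeronasal receptor genes in the same library, on a log axis, for the 4 WT libraries (blue) and *dy*W3 (red); *dy*W1 and *dy*W2 have a receptor median of 0 and are not drawn. The line marks a ratio of 1, below which all 4 WT values of *Setd1a* and 3 of 4 of *Kmt2a* lie.

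The rest of the machinery was read in 7 lists of other genes, of which 73 were tested. In all, 1 was called lower and 0 higher, against 18.7% and 0.0659% of all tested genes. At an unadjusted p under 0.05 there were 20 of the 73 (27.4%), 8 of them lower and 12 higher, against 44.3% of all tested genes.

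Of 13 partner subunits of the COMPASS complexes, 0 were called, and their median log2 fold change was 0.67. *Psip1*, which tethers the menin and MLL complex to chromatin, had the highest, 2.09 (SE 0.67, adjusted p 0.0435 by limma), from 32.0, 80.9, 57.4 and 110.1 in WT and 136, 442 and 341 in *dy*W. All its *dy*W values were above its WT values, but it did not pass the thresholds. *Paxip1*, the PTIP subunit found with Kmt2c and Kmt2d, had the lowest at -1.72 (adjusted p 0.142). *Pagr1a* was not analysed here.

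Of 7 other H3K4 methyltransferases 0 were called, from *Prdm9*, the meiotic enzyme, at -3.70 (adjusted p 0.0409 by limma) to *Kmt2e*, a catalytically inactive relative, at 1.05 (adjusted p 0.259). Their median was -0.17. Of 10 other demethylases and their partners 0 were called, with a median of -0.89. Their lowest was the Y-linked *Kdm5d*, at -4.54 (adjusted p 0.0238), which was at 149, 13.5, 4.10 and 110.1 in WT and at 0, 0 and 1.95 in *dy*W. The labels do not give the sex of the fetuses, so its level cannot be told apart from sex. *Rcor1*, a partner of the demethylase Kdm1a, had the highest at 1.02 (adjusted p 0.251).

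Of 14 readers of H3K4me3, 1 was called lower and 0 higher, with a median of -0.27. *Ing4*, a PHD finger subunit of an acetyltransferase complex, was the called gene. It was at 80.0, 43.1, 4.10 and 47.2 normalized counts in WT and at 0.195, 0 and 0 in *dy*W, the first of these resting on 2 reads. Its WT values summed to 48 reads. Its adjusted p was 0.00665 by limma, and it ranged from 0.00219 to 0.325 over the alternatives. Its fitted log2 fold change was -4.85, a value that depends on the pseudocount because *dy*W held almost no reads. The call was lost without WT1, WT2, WT4, *dy*W1 or *dy*W2, with adjusted p from 0.0146 to 0.0261 and log2 fold changes from -4.94 to -4.38. It was also lost with the same total (adjusted p 0.0223), a pseudocount of 10 (0.0386), the replicate block (0.0614), the subtraction (0.311), quantile normalization (0.325), and both WT1 and *dy*W1 left out (0.0361). *Ing1*, a reader in a deacetylase complex, had the highest log2 fold change of this list at 1.94 (adjusted p 0.0651).

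Ubiquitination of histone H2B precedes H3K4 methylation, and of 10 genes of this step and the PAF1 complex 0 were called, with a median of 0.78. They ran from *Rnf40*, an H2B ubiquitin ligase, at -2.92 (adjusted p 0.0894 by limma) to *Ube2b*, its conjugating enzyme, at 1.88 (adjusted p 0.0861). Without *dy*W1, 1 gene of this list was called lower, *Rnf40*, at -4.47 (adjusted p 0.00865), against 2090 lower and 3 higher of 26945 genes. It was called under no other alternative, and was at -0.22 (adjusted p 0.981) after the receptor level was subtracted. Of 11 tested genes of the opposing H3K27 methylation 0 were called, with a median of -0.08, from *Phf19*, an accessory subunit of the Polycomb repressive complex that places this mark, at -1.56 to *Rbbp7*, a core subunit, at 2.26. Of 8 genes for H3K36 methylation, a mark of transcribed gene bodies, 0 were called, with a median of 0.30, from the demethylase *Kdm4b* at -2.38 to the methyltransferase *Setd2* at 1.63. All these medians are on the deposited scaling, where the median of all tested genes was -1.99.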

How the data were processed

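RNA of muscle fibers from 4 WT and 3 *dy*W samples was analysed, grouped by the genotype in the labels. The labels do not say whether samples came from separate litters, so p-values measure the spread between these samples. Before deposit, the authors used Cutadapt for trimming, RNA STAR for alignment to GRCm39 and FeatureCounts for uniquely mapped reads, and they deposited counts divided by 1 DESeq2 size factor per library. Versions, annotation release and strand setting are not given in the sources used here, so reads shared with overlapping genes, such as *Star* in *Ash2l* or *Ccdc77* in *Kdm5a*, cannot be separated. A deposited table of the authors' own fold changes and p-values was not used. In each library 100% of values were whole multiples of 1 step (tolerance 0.02), which gave the reads. SMART-seq2 has no molecular identifiers, so intervals cover counting error only.

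limma 3.58.1 (R 4.3.3) was fitted to log2(normalized count + 1) of the 25791 genes that averaged 5 or more, with trended eBayes, and p-values were adjusted by Benjamini-Hochberg over all of these. Single genes were also compared by exact two-sided permutation of the libraries (35 arrangements). Of 31531 genes, 99.2% matched GENCODE M39 by identifier, which gave coordinates and exon lengths. The fit was also run on simulated counts, with the same dispersion for every gene and changes only in genes with higher mean counts. That run does not measure how well changes in genes with few reads are found. The genes and lists were chosen with earlier results of these data known. All 10 genes are named, with *Lama2* and, of each other list, called genes and the lowest and highest log2 fold changes. Alternatives were other pseudocounts, filters and scalings, a replicate block, each library left out and an adjusted p under 0.05. Voom, and leaving out WT1 with *dy*W1, were chosen after seeing the data. Summaries used scipy 1.17.1, pandas 2.3.3 and numpy 2.4.6 in Python 3.11.15, and plots matplotlib 3.10.9.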

Additional observations from a re-analysis of the deposited data

Results flagged for a closer look

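*Setd1a* in WT was the single result set apart by Dixon's test, of 12 groups of 4 values tested. The gap between WT2, at 32.4 normalized counts, and the next WT library, at 9.44, was 0.848 of the whole WT range. Chance flags about 1 in 20 such groups. The WT2 value rests on 12 reads and the other WT values on 1 to 4 reads, and the cause was not tested.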

How the results depend on the processing

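None of the 10 genes was called in either direction under any alternative run. The count over all genes, 4830 lower and 17 higher, was 0 and 0 with a pseudocount of 10, a mean of at least 50, the same total, receptor levels subtracted, or both WT1 and *dy*W1 left out. It was 2 and 0 after quantile normalization. Higher calls were 41 with a pseudocount of 0.1, 10 with no filter and 5 with voom. An adjusted p under 0.05 gave 7625 lower and 259 higher. With each library left out in turn the counts ran from 0 to 6698 lower and from 0 to 25 higher, and were 0 without WT2, WT4 or *dy*W2. The replicate block gave 1 lower and 0 higher. Same-numbered samples shared only a number (correlations of deviations 0.147, -0.0494 and -0.0880), and the block changed no call of the 10 genes.

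Of 168 values for the 10 genes under alternatives, 15 turned sign. With the same total *Kmt2b* was at 0.36, *Kmt2d* at 0.00699 and *Wdr5* at 0.70, and with receptor levels subtracted at 2.21, 0.97 and 0.49. After quantile normalization *Kdm5a* was at -0.0297 and *Kdm5b* at -0.52. With both WT1 and *dy*W1 left out *Kmt2a* was at -0.36, *Setd1a* at -0.0863 and *Kdm5b* at -0.0860. With single libraries left out *Kmt2a* ran from -0.48 to 0.75 and *Kdm5b* from -0.30 to 0.93. The summed level (log2 ratio 0.28) was 1.46 with the same total, 1.57 with subtraction, and -0.22 to 0.64 with libraries left out. The cause was not tested. Count models in edgeR and DESeq2 were not run. The few reads in WT limit every value here.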

Other observations

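The 10 genes took 550.1, 272, 154 and 199 reads per 1000000 reads on genes in WT1 to WT4, and 1476, 247 and 704 in *dy*W1 to *dy*W3, so the groups overlapped on this scale too. In ratios to each of 13904 other tested genes with a similar mean count, all *dy*W values of *Kmt2c* exceeded all its WT values for 36.5% of these genes and were below them for 0.331%. Over the ratios of all 10 genes, 25.4% did not overlap in either direction. These shares, higher and then lower, were 32.4% and 0.575% for *Kdm5a*, 25.1% and 1.34% for *Kdm5b*, 23.7% and 0.806% for *Kmt2a*, 21.6% and 0.252% for *Setd1a*, and 17.2% and 8.41% for *Wdr5*. They were 15.8% and 2.92% for *Kmt2b*, 15.5% and 5.78% for *Kmt2d*, 11.7% and 9.78% for *Setd1b*, and 10.3% and 13.9% for *Ash2l*. These ratios share the 7 libraries and are not independent of each other. The median log2 fold change of the genes in this range was -1.14, so a gene without change would also give more higher than lower ratios. The same shares for other genes were not computed.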
